A study of Oryza sativa with 12 samples.

Results

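The starch enzyme genes ALK, SSI, AGPS2 and DPE1 were followed in panicles of rice (Oryza sativa). They were found on the array through its annotation and the synonyms in a gene table of RefSeq, and they make up 4 of the 17905 genes with a probe set. The array holds 5 probe sets for them, 2 for ALK and 1 for each of the others. The genes were chosen by their measured levels and differences across the groups in earlier results of these same arrays. Their values are therefore given as a description, with no test. Tests are given for other starch genes and for tissue markers only.

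Panicles came from 2 cultivars, IR64, which the labels call susceptible to heat, and Nagina 22 (N22), which they call tolerant. Each cultivar was sampled after 8 days at 5 °C above ambient, counted from booting, and in a control grown in the open field, with 3 arrays per group and 12 arrays in all. No genetic change or other agent is named, and sowing dates were staggered to bring flowering together. Heat was applied inside a facility, so the growing site changed with the temperature, and the effects of the 2 cannot be told apart. The sources used here do not say how many plants went into a sample. Nothing says that the 3 samples of a group came from separate plants, so their spread may be technical.

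Starch is made in plastids and stored as granules in the endosperm of the grain, in ripe pollen and, for a day at a time, in leaves. ADP-glucose pyrophosphorylase makes the glucosyl donor, starch synthases lengthen the chains, and branching and debranching enzymes shape them into amylopectin. In the endosperm of cereals, most ADP-glucose is made outside the plastid and imported. Disproportionating enzymes move short stretches of glucose units between chains and are best known for handling the products of starch breakdown.

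Expression is given as log2 signal made with GCRMA, a method that removes background by probe sequence and summarises the probes of a set. A difference of 1 on this scale is a 2-fold change. Background was set at 4.20, which no array exceeded on any of the 64 reporter probe sets, designed for sequences foreign to rice. Levels are compared between groups for the same probe set, never between genes.

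AGPS2 (LOC4345339) encodes a small subunit of ADP-glucose pyrophosphorylase, the enzyme at the entry to starch synthesis. On the 3 arrays of IR64 control it read 9.60, 9.66 and 9.63, and on those of IR64 heat 9.41, 9.14 and 9.10. In N22 it read 14.36, 14.41 and 14.28 in control and 13.27, 13.43 and 13.35 in heat. Every N22 array lay above every IR64 array, and in both cultivars every heat array lay below every control array. In control, N22 exceeded IR64 by 4.72 ± 0.08 (log2 difference, SE of the fit), a 26.3-fold difference, and in heat by 4.13 ± 0.08, or 17.5-fold. Heat minus control was -0.42 ± 0.08 in IR64, a 1.33-fold lower level, and -1.0 ± 0.08 in N22. The probe set is of a type that can match several transcripts of the same gene, so the forms of AGPS2 known in rice for the plastid and for the cytosol were not resolved.

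SSI (LOC9269493) encodes starch synthase I, which adds glucose to short chains of amylopectin. Its level was 9.61, 9.64 and 9.62 in IR64 control and 8.58, 9.05 and 8.43 in IR64 heat. In N22 it was 14.36, 14.44 and 14.38 in control and 14.31, 14.39 and 14.28 in heat. The 2 cultivars were wide apart, and heat arrays lay below control arrays in IR64 only, with overlap in N22. The cultivar difference was 4.77 ± 0.13 in control, or 27.3-fold, and 5.64 ± 0.13 in heat, or 49.9-fold. Heat minus control was -0.94 ± 0.13 in IR64, and -1.12 without IR64 heat replicate 2, the highest of its group. In N22 it was -0.07 ± 0.13, with a 95% interval from -0.35 to 0.22, which leaves room for a small change either way. The N22 values lie near the top of the scale, where the highest value of any array was between 15.5 and 15.8, and no saturation flags came with the table.

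ALK (LOC4340567), listed also as SSII-3, encodes the starch synthase IIa of the endosperm, whose alleles are known to set the gelatinisation temperature of rice grain. Its brighter probe set gave 3.73, 3.12 and 3.43 in IR64 control and 3.14, 3.02 and 2.83 in IR64 heat, all under background. In N22 it gave 13.01, 13.01 and 13.05 in control and 12.09, 12.05 and 11.65 in heat. The transcript was thus bright on all 6 N22 arrays and not above background on any IR64 array. N22 exceeded IR64 at least 453-fold in control and at least 212-fold in heat, taking background as the level of IR64. Heat minus control in N22 was -1.10 ± 0.16, and no fold is given for heat in IR64. The other ALK probe set stayed under background on all 12 arrays, between 2.44 and 2.68, so the gene's pattern rests on 1 probe set.

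DPE1 (LOC4343975) encodes a disproportionating enzyme, also called D-enzyme, of the plastid. It read 6.08, 5.90 and 5.97 in IR64 control and 6.80, 6.26 and 6.67 in IR64 heat. In N22 it read 8.86, 8.64 and 8.75 in control and 6.47, 6.31 and 6.59 in heat. N22 control stood above the other 3 groups, while the heat arrays of the 2 cultivars overlapped. Heat minus control was 0.59 ± 0.13 in IR64 and -2.29 ± 0.13 in N22, a 4.90-fold lower level in N22 heat. The cultivar difference was 2.77 ± 0.13 in control, or 6.80-fold, and -0.12 ± 0.13 in heat, with a 95% interval from -0.41 to 0.18.

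**Figure D1:**
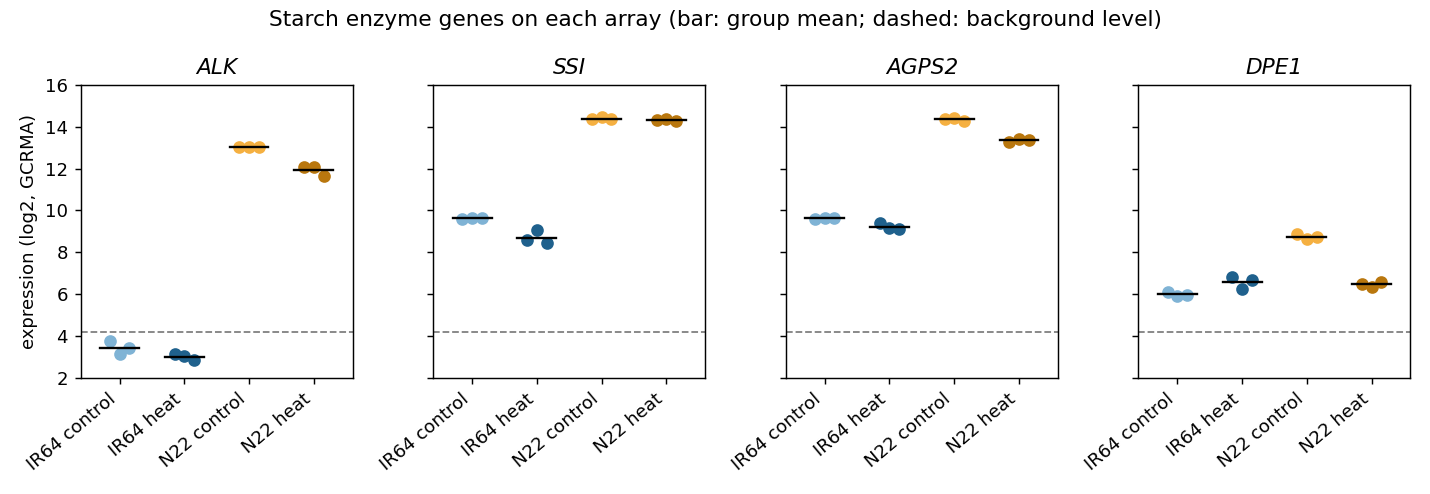
Expression (log2 GCRMA signal, vertical axis) of ALK, SSI, AGPS2 and DPE1 on each of the 12 arrays, in 4 groups of 3 (points), with group means (bars) and the background level of 4.20 (dashed line). ALK lies under background on every IR64 array, N22 exceeds IR64 for SSI and AGPS2 in control and heat, and DPE1 stands out in N22 control alone.

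All 5 probe sets passed the filter on low values on all 12 arrays. As group means with the SD of 3 arrays, AGPS2 stood at 9.63 ± 0.03 and 9.22 ± 0.17 in IR64 (control, heat) and at 14.35 ± 0.07 and 13.35 ± 0.08 in N22. SSI stood at 9.62 ± 0.02 and 8.69 ± 0.33 in IR64 and at 14.39 ± 0.04 and 14.33 ± 0.06 in N22. The arrays of IR64 heat thus spread more widely than those of IR64 control for both genes, and so they did for DPE1, at an SD of 0.28 against 0.09. ALK spread least in N22 control, with an SD of 0.02, and more in N22 heat, with 0.24.

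Leaving out any one array kept the sign of every difference for the 4 genes, which were chosen with these differences known. The kept signs therefore describe the values and support nothing further, also where the 95% interval does not span 0. The interval spans 0 for DPE1 between cultivars in heat (-0.28 to -0.01 with an array left out) and SSI with heat in N22 (-0.10 to -0.04). The heat difference of DPE1 in N22 ran from -2.36 to -2.22 with an array left out, and that in IR64 from 0.48 to 0.75. For AGPS2 the corresponding ranges were -1.04 to -0.96 and -0.51 to -0.36. For SSI in IR64 the range was -1.12 to -0.81, and for ALK in N22 it was -1.17 to -0.96. The cultivar difference in control ran from 4.69 to 4.75 for AGPS2 and from 4.75 to 4.79 for SSI. The arrays of a group may be technical repeats, so these ranges may not hold for other plants.

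The order of the groups differed among the 4 genes. AGPS2 ran from N22 control through N22 heat and IR64 control to IR64 heat, with no overlap between neighbours. For SSI the first 2 places, N22 control and N22 heat, overlapped. For ALK the 2 IR64 groups overlapped below background. DPE1 ran from N22 control to IR64 heat and N22 heat, which overlapped, and then to IR64 control.

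Counted over the 4 genes, all had every N22 array above every IR64 array in control, as did 36.9% of the 29803 probe sets tested. In heat, 3 of the 4 did, against 32.2% of all probe sets. With heat in N22, 3 of the 4 had every heat array below every control array, against 31.3%, and SSI was the exception. With heat in IR64, SSI and AGPS2 did so, against 30.1%, and DPE1 lay wholly above its control, as did 27.5% of all probe sets. These contrasts share groups and helped to choose the genes, so the counts describe them and support nothing further.

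**Figure D2:**
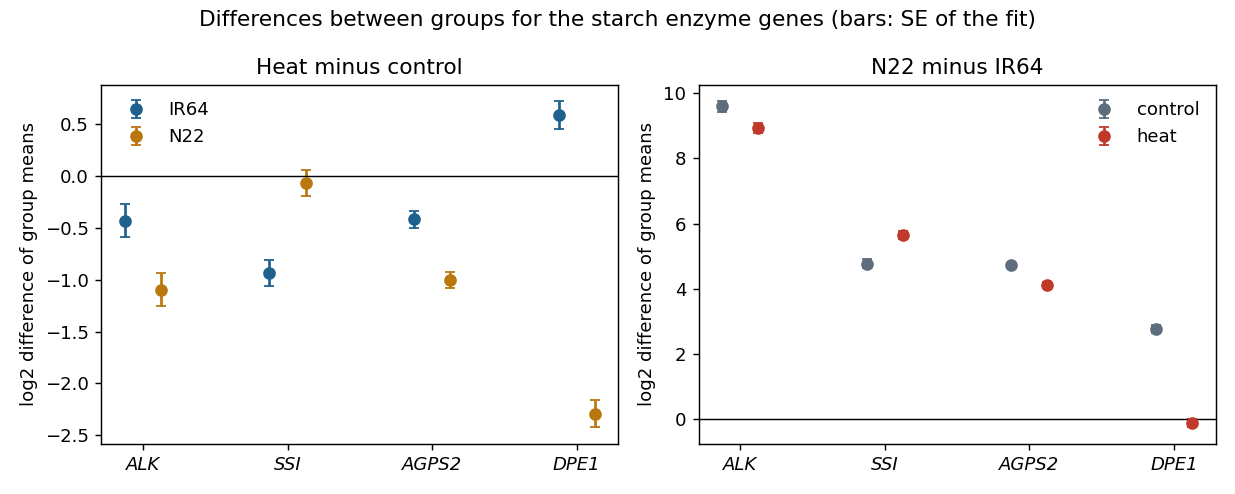
Log2 differences of group means for ALK, SSI, AGPS2 and DPE1, with the SE of the fit as bars: heat minus control in each cultivar (left) and N22 minus IR64 in each condition (right). DPE1 has opposite signs with heat, 0.59 in IR64 and -2.29 in N22, and the ALK values that involve IR64 are fitted to signals under background.

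The heat effect in N22 minus that in IR64 was -2.88 ± 0.19 for DPE1 and -0.59 ± 0.12 for AGPS2. For SSI it was 0.87 ± 0.18, the only positive value among the 4. For ALK the value of -0.66 ± 0.22 rests on IR64 signals under background. None of these signs turned under the other scalings tried.

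Markers of other tissues moved with the cultivar difference. Of 9 endosperm storage genes with a probe set, 8 were above background on all N22 arrays and 1 on all IR64 arrays. The glutelin gene GLUA1 (shared probe set) averaged 2.30 ± 0.02 (SD, n = 3) in IR64 control and 14.07 ± 0.02 in N22 control. GLUA3, another glutelin gene, averaged 2.51 ± 0.13 and 14.83 ± 0.05. The prolamin gene RP5, on a probe set open to cross-hybridisation, averaged 2.34 ± 0.03 and 14.37 ± 0.06. The summed signal of the list, on the log2 scale, ran from 10.39 to 10.46 in IR64 control, from 9.77 to 10.04 in IR64 heat, from 17.21 to 17.29 in N22 control and from 17.23 to 17.34 in N22 heat. The exceptions were GLB (LOC4337720), lower in N22 by 1.76 in control (value -1.76), and GLUB4, under background on all arrays. GLB was matched by a synonym that may denote another gene, and it makes up nearly all of the sum in IR64. Without it the sum ran from 5.61 to 5.80 in IR64 control, 5.42 to 5.47 in IR64 heat, 17.20 to 17.28 in N22 control and 17.23 to 17.34 in N22 heat, and none of the other 8 genes was above background in IR64.

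Floral MADS-box genes, which set the identity of the organs of the flower, went the other way. All 10 with a probe set were lower in N22 than in IR64, in control and in heat (limma, adjusted p under 0.05 each), against 35.6% and 33.5% of all probe sets called lower. Their summed signal ran from 14.18 to 14.29 in IR64 control, 13.89 to 14.03 in IR64 heat, 11.11 to 11.18 in N22 control and 12.19 to 12.43 in N22 heat. At least 9 of the 10 were above background on all 3 arrays of each group, so flower genes were detected in the labelled tissue. The 3 green tissue genes were lower in N22 too. Their N22 minus IR64 difference in control was -3.31 for RBCS, -3.45 for PETE and -1.93 for CAB2R, and in heat it was -0.81, -0.72 and -0.41. The pollen gene EXPB10 was at least 5.33-fold lower in N22 in control and at least 3.79-fold higher in heat. In tissue samples, fewer cells of a type and less RNA per cell cannot be told apart. The part of such tissue shares in the cultivar differences of AGPS2, SSI, ALK and DPE1 was not tested. A difference in transcript level and a difference in how well probes match each cultivar's sequence cannot be told apart either in a comparison of cultivars.

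**Figure D3:**
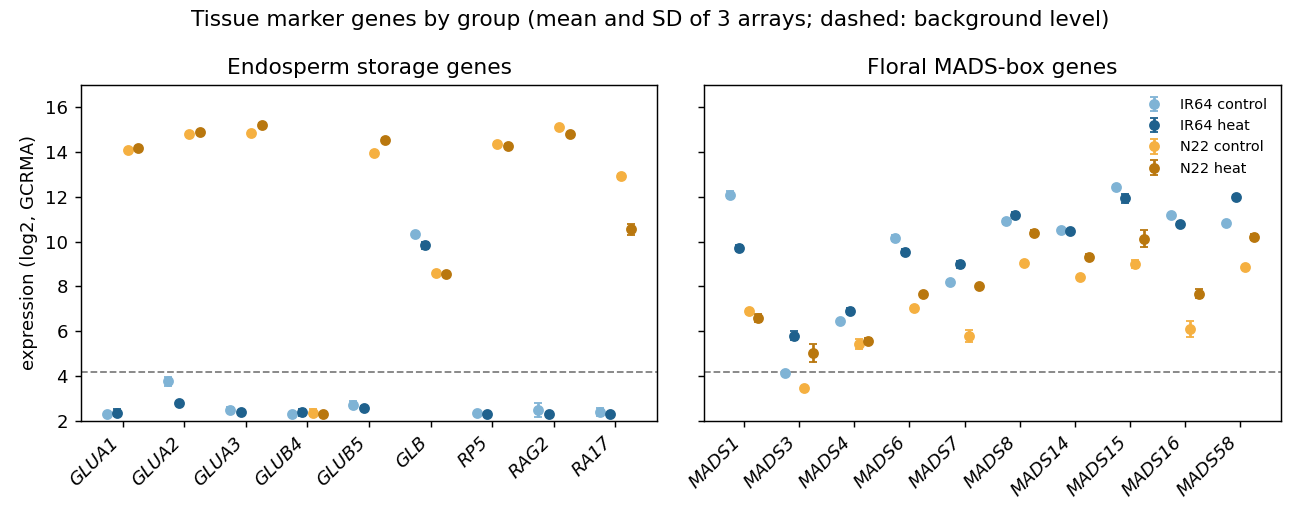
Expression (log2 GCRMA signal) of 9 endosperm storage genes (left) and 10 floral MADS-box genes (right) in the 4 groups, as means with the SD of 3 arrays, and the background level (dashed line). Storage genes other than GLB and GLUB4 lie under background in IR64 and above 10 in N22, and the MADS-box genes are lower in N22.

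With heat in N22, the storage genes did not move as one. GLUA3 rose by 0.36 ± 0.07 (limma, adjusted p = 0.00152) and GLUB5 by 0.57 ± 0.09 (adjusted p = 0.000284), while RA17, a seed allergen gene, fell by 2.38 ± 0.12 (adjusted p = 1.17e-07). The other 5 tested were not called. Other tissue markers moved with heat in N22 as well. Of the 10 floral genes 8 rose and 1 fell, and all 3 green tissue genes rose, against 23.9% of all probe sets called up and 27.8% called down (18.7% and 45.1% after centring on tested probe sets). The pollen gene EXPB10 went from 2.42 to 6.13 with heat in N22, and from 6.62 to 2.45 with heat in IR64. Tissue markers moved with heat in IR64 too. There, 5 of the 10 floral genes rose and 3 fell, against 24.2% and 27.5% of all probe sets. Of the 3 green tissue genes 1 rose and 1 fell, and of the storage genes GLB and GLUA2 fell, the latter under background. The part of these markers in the heat differences of AGPS2, ALK, SSI and DPE1 was not tested. Of 5 tapetum genes, EAT1 was the only one above background on any array, and none was called for heat.

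The gap between 3' and 5' signal, a measure of RNA quality, differed between groups as well. For 1 GAPDH set, the 3' end exceeded the 5' end by 4.79 ± 0.18 (SD, n = 3) in IR64 control and 7.93 ± 0.16 in IR64 heat. In N22 the gap was 8.59 ± 0.14 in control and 8.81 ± 0.17 in heat. For ubiquitin the gaps were smaller, at 1.45 ± 0.03, 2.15 ± 0.01, 2.21 ± 0.07 and 2.04 ± 0.05 in the same order. The other GAPDH set had its 5' signal at the lowest value, 2.29, in every group, so its gaps are not resolved. IR64 control had the smallest gap for ubiquitin and for the first GAPDH set. It enters the heat difference of IR64, the cultivar difference in control and the difference of heat effects. The part of RNA quality in those values was not tested. Arrays of a group correlated at 0.994 to 0.997 over the tested probe sets. Centring arrays on the median of their tested probe sets moved the median difference of all probe sets from 0.00 to 0.11 with heat in IR64 and from -0.01 to -0.20 with heat in N22. For the cultivars in control it moved from 0.00 to 0.20. With this scaling SSI stood at -0.26 with heat in N22, close to the median of all probe sets, and AGPS2 at -0.30 with heat in IR64, below a median of 0.11. DPE1 stood at -2.48 with heat in N22, far below that median.

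Other genes of the pathway were taken from a list by name. The gene table held 14 of the 51 names searched, 12 of these had a probe set, and 10 passed the filter on low values. The alpha-amylase genes AMY1A and AMY3A did not pass it. Names of other ADP-glucose pyrophosphorylase subunits, starch synthases III and IV, branching enzyme IIb, pullulanase, phosphorylases and beta-amylases found no match. Of the enzymes that build starch chains, only WX and SBE1 were among the genes tested, so the counts cover a part of the pathway. In control panicles, 5 of the 10 were higher in N22 and 5 lower at an adjusted p under 0.05, against 35.1% and 35.6% of all probe sets (48.7% and 30.6% after centring on tested probe sets), and the median was 0.47 against 0.00 over all probe sets. In heat, 5 were higher, 4 lower and 1 not called, against 29.6% and 33.5%, with a median of 0.69 against -0.01.

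The 5 genes higher in N22 control were WX, AMY3E, SBE1, PPDKB and FLO6. WX, the granule-bound synthase that makes amylose, averaged 6.64 ± 1.54 in IR64 control and 15.31 ± 0.02 in N22 control (SD, n = 3; difference 8.67 ± 0.78, SE, limma adjusted p = 2.08e-06). The IR64 control arrays spread from 5.56 to 8.41 on this probe set, which can cross-hybridise. Of the 3 WX probe sets with no mark of cross-hybridisation, all were under background in IR64, and in N22 control they averaged 14.31 ± 0.09, 6.72 ± 0.11 and 2.29, the last under background. The branching enzyme gene SBE1 was higher by 4.35 ± 0.12 (limma, adjusted p = 1.85e-10), again from a probe set open to cross-hybridisation. PPDKB, a pyruvate orthophosphate dikinase needed for translucent grain, was higher by 4.23 ± 0.10 (adjusted p = 5.41e-11). These sizes stand beside 4.72 for AGPS2 and 4.77 for SSI. The alpha-amylase gene AMY3E (shared probe set) was at least 13.3-fold higher (adjusted p = 1.84e-08), from background in IR64. In heat, the values were 10.47 for WX, 4.02 for SBE1, 5.80 for PPDKB and at least 6.02-fold for AMY3E, and AMY3D was at least 1.56-fold higher.

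The 5 genes lower in N22 control were AMY3D, DPE2, PWD, RSR1 and AMY2A. The alpha-amylase gene AMY3D was at least 2.39-fold lower in N22 (limma, adjusted p = 5.83e-06). Its other probe set read 2.29, the lowest value, in every group, so the gene's pattern rests on 1 of 2 probe sets. DPE2, the cytosolic disproportionating enzyme that uses maltose from starch breakdown, was lower by 1.22 ± 0.05 (value -1.22, adjusted p = 5.58e-09). Its relative DPE1 was thus higher in N22 control where DPE2 was lower. PWD, which phosphorylates starch for breakdown, changed by -1.0 ± 0.06 (adjusted p = 1.02e-07). RSR1 (shared probe set), a transcription factor known in rice to lower the expression of starch synthesis genes, changed by -0.90 ± 0.11 (adjusted p = 3.35e-05). In heat the values were -1.83 for PWD, -1.22 for DPE2, -0.51 for RSR1 and -0.35 for FLO6. FLO6, whose product binds starch and whose loss gives floury grain, had been higher in control, by 1.24 ± 0.11. Its call in heat (adjusted p = 0.0205) was lost without the filter (adjusted p = 0.0529) and without N22 heat replicate 1 (adjusted p = 0.0581).

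With heat in N22, 3 of the 10 rose, 4 fell and 3 were not called, against 23.9% and 27.8% of all probe sets, with a median of -0.05 against -0.01. Those that fell were FLO6 (-1.47 ± 0.11, limma adjusted p = 2.05e-06), AMY3E (-1.15 ± 0.27, adjusted p = 0.00480), SBE1 (-0.91 ± 0.12, adjusted p = 9.40e-05) and PPDKB (-0.66 ± 0.10, adjusted p = 0.000218). The value of SBE1 lies beside -1.0 for AGPS2 and -1.10 for ALK. AMY3D rose at least 1.56-fold from background (adjusted p = 0.000110), RSR1 rose by 1.26 ± 0.11 (adjusted p = 5.94e-06) and DPE2 by 0.24 ± 0.05 (adjusted p = 0.00315). The DPE2 call was lost, at 0.05 and adjusted p = 0.566, once arrays were centred on the median of tested probe sets. With that centring, 18.7% of all probe sets rose and 45.1% fell. WX was not called on its brightest probe set (-0.13 ± 0.78), with an SE shared by all groups and widened by the IR64 arrays. On that probe set the N22 heat arrays, 15.15 to 15.22, lay below the N22 control arrays, 15.30 to 15.33, near the top of the scale. The mean of the WX probe sets changed by -0.93 (limma, adjusted p = 0.00329). Of the WX probe sets without a mark of cross-hybridisation, one went from 14.31 ± 0.09 to 12.99 ± 0.13 and another from 6.72 ± 0.11 to 5.66 ± 0.22, while the last was under background on all arrays. PWD was not called (0.13 ± 0.06), but was without N22 control replicate 1 (0.18, adjusted p = 0.0313).

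With heat in IR64, 3 rose, 4 fell and 3 were not called, against 24.2% and 27.5% of all probe sets (30.6% and 23.3% after centring on tested probe sets), with a median of -0.06 against 0.00. PPDKB fell by 2.23 ± 0.10 (limma, adjusted p = 2.71e-08), SBE1 by 0.58 ± 0.12 (adjusted p = 0.00205) and AMY3D to background, at least 2.39-fold (adjusted p = 8.24e-05). AMY2A was called down at values under background in both groups (adjusted p = 0.0224). PWD rose by 0.96 ± 0.06 (adjusted p = 4.75e-07), RSR1 by 0.88 ± 0.11 (adjusted p = 8.16e-05) and DPE2 by 0.23 ± 0.05 (adjusted p = 0.00366). The SBE1 call was lost with the mean of its probe sets (-0.21, adjusted p = 0.113). AMY2A was also called lower in N22 control (-0.29), under background throughout, a call lost after centring on tested probe sets (adjusted p = 0.397). Its call with heat in IR64 was lost without IR64 heat replicate 1 or 3 (adjusted p = 0.0579 each) and after centring on tested probe sets (adjusted p = 0.256). WX was not called (-1.94 ± 0.78, adjusted p = 0.0610), but was without IR64 heat replicate 2 (adjusted p = 0.00938) and without IR64 control replicate 3 (adjusted p = 0.0342). It was also called with the mean of its probe sets (-0.65, adjusted p = 0.0218). All WX probe sets with no mark of cross-hybridisation were under background in both IR64 groups. Those above background there, on some or all arrays, can cross-hybridise. AMY3E, under background in both groups, was called without IR64 heat replicate 3 (adjusted p = 0.00154).

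**Figure D4:**
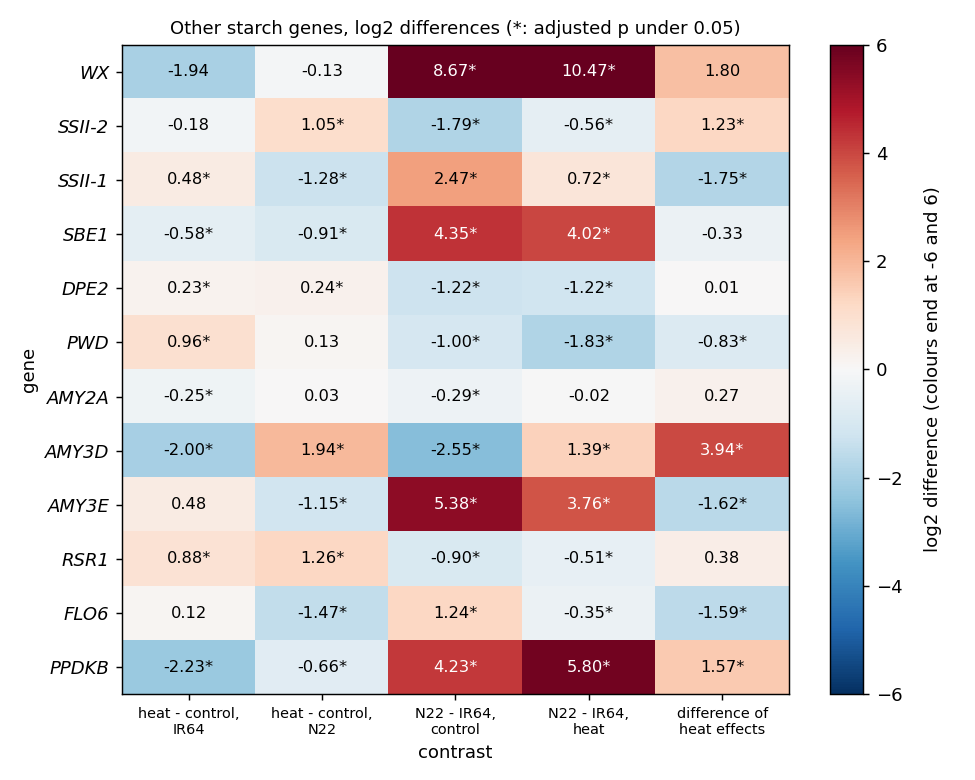
Log2 differences of 12 other starch genes (rows) in the 5 contrasts (columns), with a star for an adjusted p under 0.05 in limma and colours that stop deepening at the ends of the scale. WX, SBE1, AMY3E and PPDKB were higher in N22 in control and in heat, and AMY3D changed in opposite directions with heat in IR64 and N22.

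By the test of the difference of heat effects, 2 of the 10 had a more positive effect in N22 and 3 a more negative one, with 5 not called, against 29.3% and 26.1% of all probe sets (22.1% and 46.3% after centring on tested probe sets). The median was 0.14 against -0.01. The more positive were AMY3D (3.94 ± 0.37, limma adjusted p = 7.91e-06) and PPDKB (1.57 ± 0.14, adjusted p = 5.13e-06). The more negative were AMY3E (-1.62 ± 0.38, adjusted p = 0.00449), FLO6 (-1.59 ± 0.16, adjusted p = 1.50e-05) and PWD (-0.83 ± 0.09, adjusted p = 2.00e-05). Centring on tested probe sets gave 2 more positive and 5 more negative, and centring on each array's median gave 4 and 3. SBE1 was not called in the main setting (-0.33 ± 0.17, adjusted p = 0.123), but was with the mean of its probe sets (-0.94, adjusted p = 0.000302), with the former centring (-0.64, adjusted p = 0.00808) and without N22 heat replicate 2 (adjusted p = 0.0357). RSR1 (0.38, adjusted p = 0.0664) was called without IR64 heat replicate 3 (adjusted p = 0.0116) or N22 heat replicate 2 (adjusted p = 0.0412). It was also called with centring on each array's median (adjusted p = 0.0468) and with a replicate block (adjusted p = 0.0392). DPE2 (0.01, adjusted p = 0.955) was called more negative with quantile normalisation (-0.21, adjusted p = 0.0492) and with centring on tested probe sets (-0.30, adjusted p = 0.0215). WX was not called (1.80 ± 1.10, adjusted p = 0.194), but was without IR64 heat replicate 2 (2.60, adjusted p = 0.0411). With the mean of its probe sets the sign of WX turned (-0.27, adjusted p = 0.455). AMY2A, under background on all arrays, was not called (0.27, adjusted p = 0.0585). It was called without IR64 control replicate 1 (adjusted p = 0.0101), with quantile normalisation (adjusted p = 0.0318) and with centring on each array's median (adjusted p = 0.0353).

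The ALK relatives SSII-1 and SSII-2 were added once the gene table had been read and stand outside the list. They moved in opposite ways. SSII-1 (LOC4348711) averaged 5.38 and 5.86 in IR64 (control, heat), and 7.85 and 6.58 in N22. It was higher in N22 control by 2.47 ± 0.08 (limma, adjusted p = 8.59e-10), and heat changed it by 0.48 in IR64 and -1.28 in N22, signs that DPE1 shares. SSII-2 (LOC4330709) averaged 7.25, 7.07, 5.46 and 6.51 in the same order. It was lower in N22 control by 1.79 ± 0.17 (value -1.79, limma adjusted p = 2.68e-06) and rose with heat in N22 by 1.05 ± 0.17 (adjusted p = 0.000344). The SSII-2 pattern rests on its brightest probe set, since its others averaged 2.29 to 2.33, under background, in every group. The difference of heat effects was -1.75 ± 0.12 for SSII-1 (limma, adjusted p = 8.07e-07) and 1.23 ± 0.23 for SSII-2 (adjusted p = 0.00119). By the brightest probe set of each of the 3 starch synthase II genes, ALK was thus the one that IR64 panicles did not show above background.

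Genes with the most similar patterns were sought among 2275 other named genes, by the root mean square difference over the 12 arrays of values centred on each probe set's mean. Closest to AGPS2 was SBE1, listed as Q-enzyme, at 0.21, where the median over all named genes was 2.35. GW2, a ubiquitin ligase known for its effect on grain width, and MFT1 followed at 0.33 and 0.34. Closest to ALK were RA17 (0.51), the embryogenesis protein gene EM (0.52) and the lipid transfer gene LTP-2 (0.72), against a median of 4.74. Closest to SSI were NEK1 (0.39), HGGT, an enzyme of tocotrienol synthesis (0.41), and OsTPP7, a trehalose phosphate phosphatase (0.43), against 2.73. Closest to DPE1 were PRMT5, a protein arginine methyltransferase (0.18), CSLA9, of the cellulose synthase-like family (0.23), and GLU8 (0.27), against 1.25. PRMT5 averaged 7.84 in IR64 control, 8.42 in IR64 heat, 10.51 in N22 control and 8.34 in N22 heat. These distances are over arrays that share 4 group levels, and they carry no test.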

How the data were processed

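Gene expression was measured on 12 Affymetrix rice arrays. The authors deposited 1 table of log2 values for 57381 probe sets, made with GCRMA per the submitters' processing notes, in a version that the sources used here do not state. Values run from 2.29 to 15.8. All columns were used. The 123 control probe sets were left out, and a probe set was kept where it exceeded the median of the table, 2.35, on at least 3 arrays (29803 kept). The 4 group means were modelled with lmFit and eBayes of limma 3.58.1 (R 4.3.3) on all 12 arrays, with 5 contrasts and Benjamini-Hochberg adjustment over all kept probe sets, two-sided, threshold 0.05. The script was tested on simulated data.

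In all, 22436 probe sets paired with 1 gene, 95 with several and 34850 with none; names come from the table of ASM3414082v1. A gene is represented by its brightest probe set. Folds use the background of 4.20 as a lower limit for a group with no array over it. The number of arrays limits the precision.

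The 4 genes, the lists and the background were chosen with earlier results of these data known. Named are the 4 genes, up to 4 called list genes per contrast and direction, and the 3 closest patterns per gene; FLO6 and AMY3D as the fifth higher in N22 in control and in heat, AMY2A, genes where not called, the starch synthase relatives and the tissue markers shown were named after their values were seen. Same-numbered arrays deviated together (correlation over 0.1) in 1 of 18 pairs. With 3 arrays per group this cannot settle whether the numbers pair the samples, which were modelled as unpaired. Alternatives were quantile normalisation, 2 centrings (that on tested probe sets was chosen after seeing the data), no filter, averaging the probe sets of a gene, a replicate block, eBayes with trend and robust options, leaving out each array, and the storage gene list without GLB (also chosen after seeing the data).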

Additional observations from a re-analysis of the deposited data

Results flagged for a closer look

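DPE1 moved up on all IR64 heat arrays and down on all N22 heat arrays, a difference of -2.88, which was not tested because the gene was chosen with its values known. For 7 other starch genes the difference itself was tested with limma and called. They are 5 of the 10 list genes tested and the 2 added relatives. Of all probe sets, 29.3% were called more positive and 26.1% more negative, so the count says little about starch genes. The difference was 3.94 for AMY3D, 1.57 for PPDKB, -0.83 for PWD, -1.59 for FLO6, -1.62 for AMY3E, 1.23 for SSII-2 and -1.75 for SSII-1 (log2 scale, N22 minus IR64). AMY3D, on its brighter probe set only, fell to background in IR64 and rose from it in N22. AMY3E was under background in IR64. The sizes of the differences for AMY3D and AMY3E thus depend on signals that the array did not resolve.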

How the results depend on the processing

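The counts of called starch genes stayed within 1.5 times of the main count in all 95 repeats. Leaving out 1 array gave 6 to 8 for heat in IR64 (main 7), 7 to 8 for heat in N22 (main 7), 10 for the cultivars in control (main 10), 8 to 9 for the cultivars in heat (main 9) and 5 to 7 for the difference of heat effects (main 5). With the replicate number as a block the counts were 7, 7, 10, 9 and 6, the addition being RSR1, and it changed no other call. Of 224 repeats of the values of ALK, SSI, AGPS2 and DPE1, 202 moved by less than the spread between replicates, 22 moved by more and 0 changed sign. The mean of both ALK probe sets brought its differences to 4.83 in control and -0.58 with heat in N22, since 1 of them lies under background. Levels under 4.20 are not resolved by these arrays, which limits every statement on ALK in IR64.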
